A study of Homo sapiens with 14 samples.

Results

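Regulators of gene silencing, 10 by name, were followed through a knockdown of the long noncoding RNA LINC00152, namely the Polycomb genes EZH2, EZH1, EED, SUZ12 and JARID2, the DNA methylation genes DNMT1, DNMT3A, DNMT3B and UHRF1, and the histone demethylase gene KDM1A. Members were taken as non-control probes whose listed accession matched one of the 10 genes in RefSeq's gene table, which gave 12 of the array's 50599 probes, covering 9 of the genes. No probe was matched to EED, so EED was not analysed here. The RNA came from A172 and U87-MG, established human glioblastoma cell lines labelled A172 and U87. Each line was transfected by electroporation with either a negative control siRNA or siLINC00152 #1, an siRNA against exon 1 of LINC00152. Per the labels, all 14 arrays had siRNA at 20 pmol per ml and a pulse of 1300 V for 30 ms. RNA was prepared 40 h later per the labels, a time that differs from the interval given in the study's methods. A172 gave 3 control and 3 knockdown arrays and U87-MG gave 4 of each, 14 in all, each from an independent experiment numbered as a set that holds 1 control and 1 knockdown array.

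Several limits of this model bear on every value. Only 1 siRNA against LINC00152 was used on the arrays, LINC00152 has a near-identical copy that the siRNA and the probe may not separate, and the controls also received an siRNA and the electric pulse. The arrays read RNA, so neither protein nor histone or DNA methylation was measured. The siRNA is shown because it is the only agent that differs between the groups.
siLINC00152 #1: tgcctgtcttcagatcttcacagca

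Of 8 glioma and glial markers, VIM, NES, CD44 and CNP were well above background on all 14 arrays. GFAP, the classical astrocyte filament, was well above background on 1 A172 array and on none of U87-MG, S100B on no array, and SOX2 on 6 A172 arrays and on none of U87-MG. OLIG2, a factor of the oligodendrocyte lineage, was well above background on 6 A172 and 3 U87-MG arrays. The glial label is therefore carried by part of its markers.

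Polycomb repressive complex PRC2 places methyl groups on lysine 27 of histone H3. EZH2 or EZH1 is its catalytic subunit, EED and SUZ12 complete the core, and JARID2 is an accessory subunit that helps to bring the complex to its targets. DNA methylation is laid down on unmethylated DNA by DNMT3A and DNMT3B and copied after replication by DNMT1, which UHRF1 recruits to hemimethylated sites, while KDM1A (LSD1) removes methyl groups from lysine 4 of histone H3. In glioblastoma these enzymes are studied as keepers of an undifferentiated state, and EZH2, DNMT1 and UHRF1 are usually high in dividing cells.

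Levels are given throughout as the log2 processed signal of a probe minus the 75th percentile of its array, so that a value of 0 equals that percentile, and a difference of 1 is a doubling. Testing a probe in a line required a signal well above background on 3 or more arrays of either group there. A probe was called when limma gave an FDR under 0.2 and an absolute log2 fold change over 0.5. The control and the knockdown array of a replicate mostly deviated from their groups alike, so every count is given for a fit without and a fit with the replicate as a block.

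LINC00152 itself was low on every knockdown array. In A172 the control arrays gave 2.63, 2.44 and 2.48 and the knockdown arrays 0.23, -0.42 and -0.10. In U87-MG the controls gave 1.94, 1.83, 1.71 and 1.82 and the knockdown arrays -1.22, -0.88, -0.74 and -0.79. The groups did not overlap in either line, and 16.3% and 15.1% of the control signal remained (limma adjusted p = 0.000731 and 4.96e-05).

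Against this background, no probe of the silencing regulators was called. In A172, 8 of the 12 probes were tested, covering 7 genes, and 0 were called, against 0.183% of all 28338 tested probes. In U87-MG, 6 probes of 6 genes were tested and 0 were called, against 0.0502% of 21921. The 6 include the DNMT3A probe A_33_P3272330, which was tested only through the controls, with 3 of 4 control and 1 of 4 knockdown arrays well above background, and which is also part of the medians and of the comparison between the lines. With the replicate block the counts were again 0 in both lines, against 3.26% of all tested probes for A172 and 4.19% for U87-MG. At such shares, 0 of 8 and 0 of 6 probes do not set the regulators apart from the array as a whole. At an unadjusted p under 0.05, limma without the block gave 0 member probes in either line, where 2.28% of all tested probes passed for A172 and 2.31% for U87-MG. With the block it gave 2 of 8 in A172 (KDM1A and EZH1), where 10.7% of all probes passed, and 1 of 6 in U87-MG (JARID2), where 16.9% passed. A p that misses the threshold does not show that a gene was unaffected, so intervals or standard errors are given below for the genes that could be tested.

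**Figure D1:**
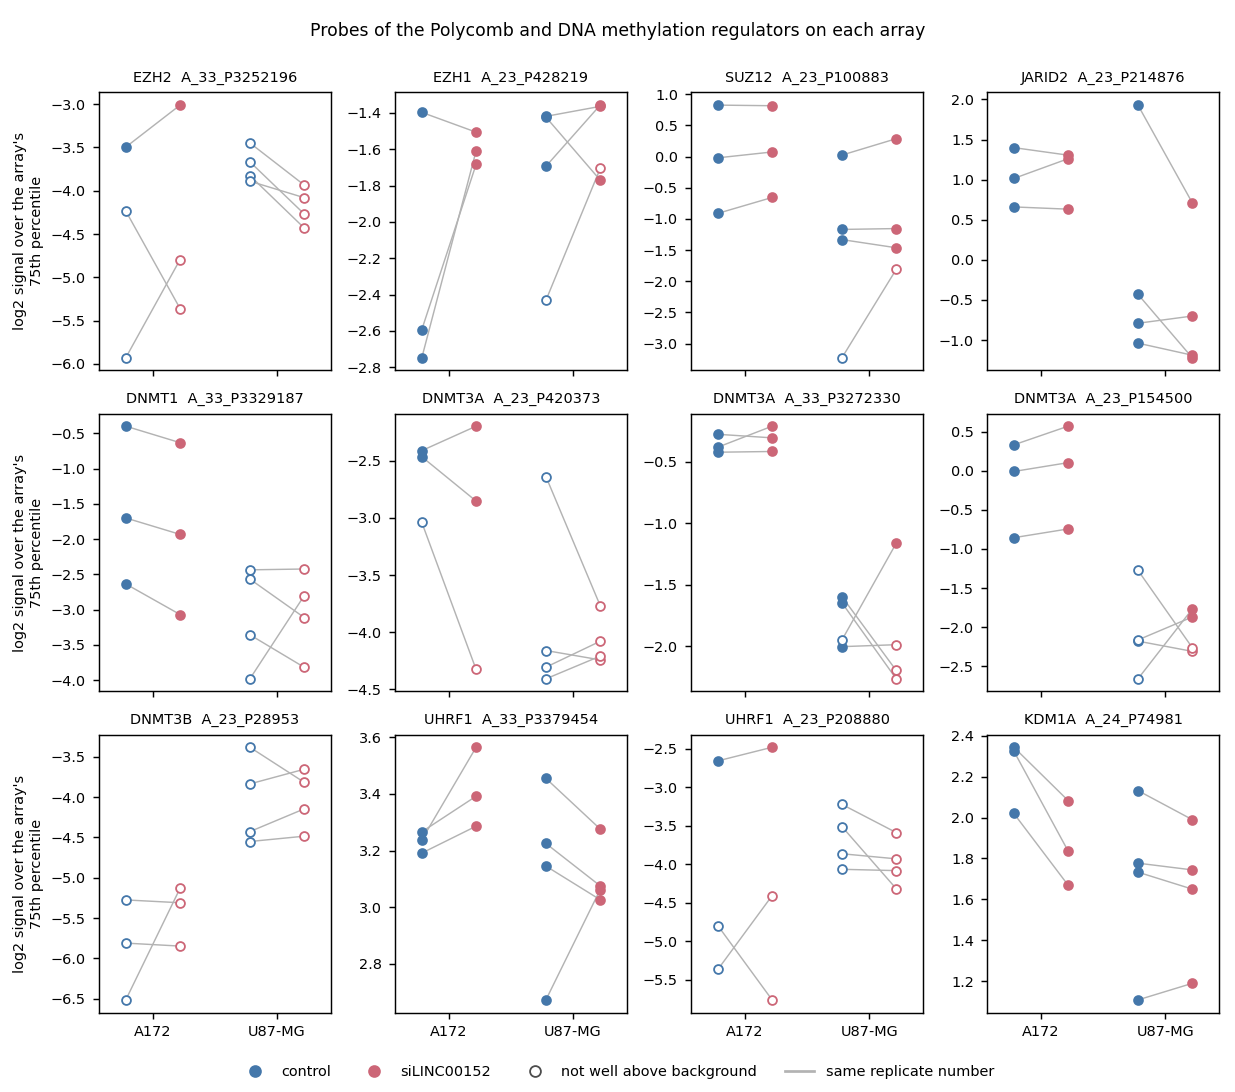
Log2 signal over the array's 75th percentile (vertical axes, a scale per panel) for the 12 member probes on each of the 14 arrays, with control arrays in blue, siLINC00152 arrays in red, open circles where the probe was not well above background, and grey lines joining arrays of the same replicate number. KDM1A is lower in all 3 A172 pairs, UHRF1 A_33_P3379454 is higher in all 3, and for SUZ12 and DNMT1 in A172 the lines between partners are flat beside the distance between replicates.

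Among the catalytic subunits of PRC2, the only matched probe of EZH2 was near the detection limit. Whether this comes from a low transcript or a poor probe was not tested. The EZH2 probe read -3.50, -4.23 and -5.93 on the A172 control arrays and -3.01, -5.36 and -4.80 after the knockdown. Only the 2 arrays of replicate 1 were well above background. In U87-MG it read -3.83, -3.67, -3.45 and -3.89 in the controls and -4.43, -4.27, -3.93 and -4.08 after the knockdown, with no array well above background. The U87-MG groups did not overlap and all 4 pairs were lower. Over all tested U87-MG probes, 2.79% had groups without overlap and 30.5% had pairs of 1 direction. Both EZH2 groups lay below the limit, so no direction is read from this probe. With dim probes kept in the limma fit, EZH2 had an adjusted p of 1.00 in each line, for a log2 fold change of 0.16 with a standard error of 0.58 in A172 and of -0.47 with a standard error of 0.50 in U87-MG.

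EZH1 is the catalytic subunit that is typical of resting cells. Its control arrays read -1.40, -2.75 and -2.59 and its knockdown arrays -1.51, -1.61 and -1.68. The knockdown arrays lay close together, 2 of the 3 controls lay about a log2 unit lower, and the groups overlapped because the control array of replicate 1 was the highest of all 6. The log2 fold change was 0.65 (95% interval -0.12 to 1.42, limma adjusted p = 1.00), and with the block the interval was 0.02 to 1.28 (adjusted p = 0.449). After normexp background correction the log2 fold change was 0.27. In U87-MG the controls read -1.69, -1.42, -2.43 and -1.42 and the knockdown arrays -1.36, -1.77, -1.71 and -1.36, with replicate 3 not well above background in either group. The groups overlapped, 3 of 4 pairs were higher, and the log2 fold change was 0.19 (95% interval with the block -0.35 to 0.74, adjusted p = 0.679), a direction that was lost after normexp background correction (-0.002).

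SUZ12, the core subunit that holds the complex together, differed more between replicates than between siRNAs. In A172 the controls read 0.83, -0.91 and -0.02 and the knockdown arrays 0.82, -0.66 and 0.07. In U87-MG the controls read -1.33, -1.17, -3.23 and 0.02 and the knockdown arrays -1.46, -1.16, -1.81 and 0.29. Each knockdown array thus lay near its own control, apart from replicate 3 of U87-MG, with replicate 1 highest in A172, replicate 4 highest and replicate 3 lowest in U87-MG. The SD of the A172 control arrays was 0.87 and that of the pair differences 0.13. The probe was printed in 10 copies on each array, and the SD over its copies, which covers spot noise alone, ranged from 0.03 to 0.41. For A172 the log2 fold change was 0.11 (95% interval with the block -0.52 to 0.75, limma adjusted p = 0.999), or 0.04 with normexp. Fits that broke a pair turned it, to -0.325 without control array 2 and to -0.256 without knockdown array 1. With a whole pair left out it ranged from 0.042 to 0.175. For U87-MG the log2 fold change was 0.39 (95% interval with the block -0.16 to 0.94, adjusted p = 0.429). There replicate 3, well above background in neither group, had a pair difference of 1.42. Without its control array the log2 fold change turned to -0.21, and without both its arrays it was 0.048. Under other settings it ranged from 0.05 with normexp to 0.71 with the deposited values.

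JARID2 was well above background on every array. Its A172 controls read 0.66, 1.02 and 1.40 and the knockdown arrays 0.63, 1.26 and 1.30, so the groups overlapped and the log2 fold change was 0.04 (95% interval with the block -0.52 to 0.60). It turned to -0.141 without the control array of replicate 1 and to -0.06 without the whole pair of replicate 2. In U87-MG the controls read -0.43, -0.79, 1.93 and -1.04 and the knockdown arrays -1.22, -0.70, 0.71 and -1.19. Replicate 3 stood more than a log2 unit above the others in both groups, on the same arrays on which SUZ12 was lowest. These were also the dimmest arrays of the series, with 35.7% and 40.4% of spots well above background, and the part of this in the values was not tested. The knockdown array was the lower of the pair in 3 of 4 replicates, and the log2 fold change was -0.52, with a 95% interval of -1.75 to 0.72 without the block. With the block the interval of the level was 0.499-fold to 0.978-fold (limma adjusted p = 0.270). The log2 fold change was -0.24 with normexp, and without the control array of replicate 3, which breaks a pair, it turned to 0.15. With a whole pair left out it ranged from -0.72 to -0.284.

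DNMT1, the maintenance methyltransferase, was lower in all 3 A172 pairs by similar amounts. The controls read -0.40, -1.70 and -2.64 and the knockdown arrays -0.63, -1.93 and -3.07, which gives pair differences of -0.23, -0.23 and -0.43. The replicates spread over 2.24 log2 units in the controls, so the groups overlapped. The log2 fold change was -0.30 with a 95% interval of -1.69 to 1.09 without the block, and with the block the standard error was 0.30 (limma adjusted p = 0.933). It was -0.08 with normexp. Without the knockdown array of replicate 3, which breaks a pair, it turned to 0.30. With a whole pair left out it ranged from -0.334 to -0.233. In U87-MG none of the 8 arrays had this probe well above background, with controls from -3.98 to -2.44 and knockdown arrays from -3.82 to -2.42, and it was not tested.

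UHRF1, which directs DNMT1 to newly copied DNA, was measured by 2 probes. The probe A_33_P3379454 was bright on all 14 arrays. In A172 it read 3.24, 3.27 and 3.19 in the controls and 3.57, 3.39 and 3.29 after the knockdown, so that every knockdown array lay above every control array. Groups that do not overlap occurred for 7.08% of all tested probes in A172 and for 1 of the 8 member probes. The log2 fold change was small, 0.18, with a 95% interval of -0.16 to 0.52 with the block, a 0.898-fold to 1.43-fold level (limma adjusted p = 0.861). In U87-MG the controls read 3.15, 3.23, 2.67 and 3.46 and the knockdown arrays 3.03, 3.08, 3.06 and 3.28. There the groups overlapped, 3 of 4 pairs were slightly lower, and the log2 fold change was -0.01 (95% interval with the block -0.31 to 0.28), which normexp and median scaling turned to 0.02 and 0.05. The probe A_23_P208880 of the same transcript was well above background only on the 2 A172 arrays of replicate 1 and was not tested, so it adds no second measure of UHRF1. Its control means were -4.275 in A172 and -3.67 in U87-MG, against 3.23 and 3.12 for the bright probe. The 2 probes thus disagree on the level of UHRF1, and which of them reads the transcript was not tested. A dim reading from 1 probe is therefore not taken as a low transcript.

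The de novo methyltransferase DNMT3A was covered by 3 probes and DNMT3B by 1. The DNMT3A probe A_33_P3272330 was steady in A172, with -0.38, -0.28 and -0.42 in the controls and -0.21, -0.31 and -0.42 after the knockdown. In U87-MG it read -1.65, -2.01, -1.95 and -1.60 in the controls and -2.27, -1.99, -1.16 and -2.20 after the knockdown. The groups overlapped in both lines, and in U87-MG 3 of 4 control arrays but 1 of 4 knockdown arrays were well above background. The log2 fold change was 0.05 in A172 (95% interval with the block -0.55 to 0.65). The fitted -0.10 in U87-MG (95% interval with the block -0.625 to 0.417) rests mostly on dim knockdown values and is not read as an effect. The probe A_23_P154500, listed for the same transcript, read -0.86, -0.01 and 0.33 in the A172 controls and -0.74, 0.11 and 0.57 after the knockdown, slightly higher in all 3 pairs. Its log2 fold change was 0.16 (95% interval with the block -0.54 to 0.85, limma adjusted p = 0.997). Fits that broke a pair turned this value, to -0.184 without control array 1 and to -0.142 without knockdown array 3. With a whole pair left out it ranged from 0.113 to 0.176. In U87-MG the probe was well above background on only 2 of 8 arrays and not tested. The third DNMT3A probe, A_23_P420373, is listed for another transcript of the gene and was well above background on 4 of 6 A172 arrays, 2 in each group, and on no U87-MG array. DNMT3B passed as well above background on 0 of the 14 arrays, with values from -6.52 to -3.38, so its level is not known beyond that.

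KDM1A had the lowest p of the tested members in A172 in the fit with the block. In A172 the controls read 2.33, 2.34 and 2.02 and the knockdown arrays 1.84, 2.08 and 1.67. The groups overlapped, since the lowest control lay under the highest knockdown array, but all 3 pairs were lower, by -0.49, -0.26 and -0.35. The log2 fold change was -0.37, a level 0.776 times that of the controls. Its standard error was 0.30 without the block and 0.11 with it, and the 95% interval with the block was -0.63 to -0.10 (limma adjusted p = 0.245, unadjusted p 0.0123). KDM1A therefore missed both thresholds, the FDR and the fold change. In U87-MG the controls read 1.78, 1.73, 1.11 and 2.13 and the knockdown arrays 1.74, 1.65, 1.19 and 1.99. The pairs differed by at most 0.14 there, and the log2 fold change was -0.04, or 0.02 with median scaling, with a 95% interval with the block of -0.27 to 0.18.

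**Figure D2:**
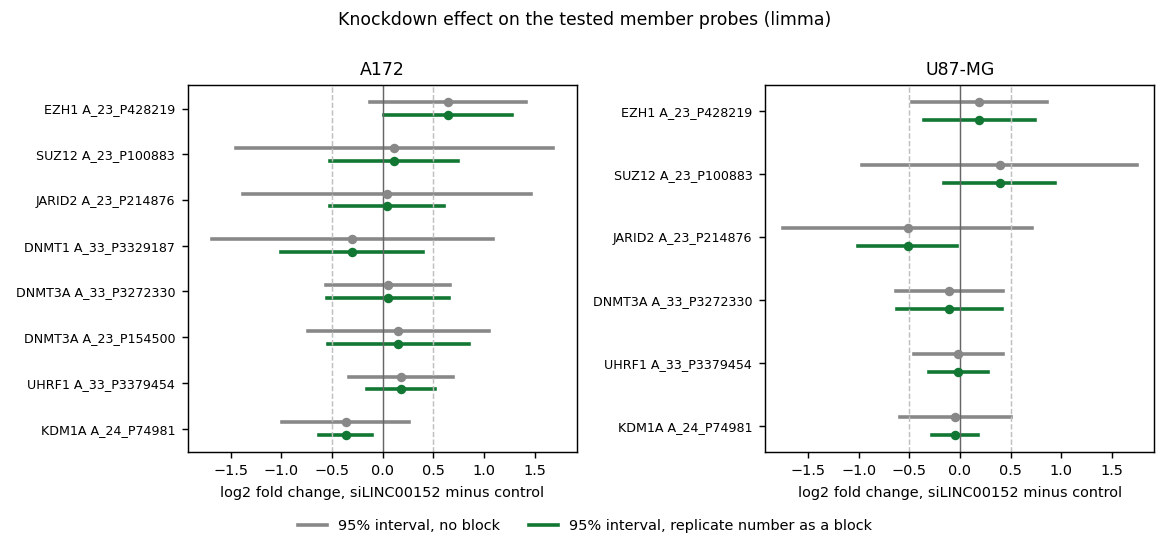
Log2 fold change of siLINC00152 against control for each tested member probe in A172 (left) and U87-MG (right), as points with 95% limma intervals without a block (grey) and with a block for the replicate (green). Dashed lines mark the fold change threshold of 0.5. With the block, the intervals of EZH1 and KDM1A in A172 and of JARID2 in U87-MG do not hold 0, and none of these probes passed the FDR over all probes.

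The absolute log2 fold change of the tested members had a median of 0.17 for A172 and of 0.15 for U87-MG, against 0.14 and 0.17 over all tested probes. In A172, 2 of the 8 tested probes were higher and 2 lower in all 3 pairs, UHRF1 and the DNMT3A probe A_23_P154500 upward and DNMT1 and KDM1A downward, where 36.4% of all tested probes had pairs of 1 direction. In U87-MG 0 of the 6 tested probes had the same direction in all 4 pairs, against 30.5% of all tested probes. The standard errors of the members had a median of 0.39 in A172 and 0.28 in U87-MG without the block and of 0.27 and 0.22 with it. Over all tested probes these medians were 0.39 and 0.32 without the block and 0.18 and 0.14 with it, so in the fit with the block the members were measured less precisely than the array at large.

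The knockdown effects of the lines were also compared directly, for the 6 member probes tested in both. None differed under the thresholds, without the block (0.00945% of 21163 probes called) or with it (0.421%). At an unadjusted p under 0.05, limma gave 0 of the 6 in either fit, where 0.789% of all probes tested in both lines passed without the block and 8.31% with it. With the block the lowest p was that of KDM1A, for which the A172 effect less the U87-MG effect came to -0.32, with a 95% interval of -0.67 to 0.03 with the block (adjusted p = 0.624). For JARID2 this difference was 0.56 (95% interval with the block -0.18 to 1.30, adjusted p = 0.677). A lower KDM1A or JARID2 signal in only 1 of the lines was thus not established by the test of the difference.

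The levels of the regulators in the control arrays of the lines are a description without a test, because the A172 and the U87-MG arrays lay on different slides and line and slide cannot be told apart. The U87-MG arrays were dimmer, with 35.7% to 48.3% of spots well above background against 57.3% to 69.0% in A172. Over all probes tested in both lines the median difference, A172 minus U87-MG, was -0.16, and -0.03 when arrays were scaled by their median. The DNMT3A probe A_33_P3272330 had -0.36 ± 0.08 (SD, n = 3) in A172 and -1.80 ± 0.21 (SD, n = 4) in U87-MG, without overlap. The share of all probes without overlap between the lines is not given here, so this is not read as particular to DNMT3A. The probe A_23_P154500 had -0.18 ± 0.61 (SD, n = 3) in A172 and passed as well above background on 0 of the 4 U87-MG controls, so no fold is given. DNMT1 was well above background on all 3 A172 controls, which read -1.58 ± 1.12 (SD, n = 3), and on 0 of the 4 U87-MG controls. No difference between the lines is given for DNMT1 either.

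SUZ12 with -0.04 ± 0.87 (SD, n = 3) against -1.43 ± 1.35 (SD, n = 4), JARID2 with 1.02 ± 0.37 (SD, n = 3) against -0.08 ± 1.36 (SD, n = 4) and KDM1A with 2.23 ± 0.18 (SD, n = 3) against 1.69 ± 0.43 (SD, n = 4) had higher means in A172 but overlapping arrays. The U87-MG control of replicate 3 stood apart in each, with -3.23 for SUZ12, not well above background, 1.93 for JARID2 and 1.11 for KDM1A. The other U87-MG controls read -1.33 to 0.02, -1.04 to -0.43 and 1.73 to 2.13. Without that array the differences were smaller for SUZ12 and KDM1A and larger for JARID2, so their sizes depend on it. The UHRF1 probe A_33_P3379454 read 3.23 ± 0.04 (SD, n = 3) in A172 and 3.12 ± 0.33 (SD, n = 4) in U87-MG, with overlap. Its U87-MG control of replicate 3 read 2.67, beside 3.15, 3.23 and 3.46 on the others. Without that array the A172 mean was the lower one, so no direction is read. EZH1 read -2.25 ± 0.74 (SD, n = 3) in A172 and -1.74 ± 0.48 (SD, n = 4) in U87-MG, again with overlap. DNMT3B was well above background in no control array of either line, so its values are not compared. After normexp background correction the differences were smaller for DNMT3A A_33_P3272330 (0.24 from 1.44) and SUZ12 (0.44 from 1.39). They were larger for UHRF1 (0.70 from 0.11) and KDM1A (0.86 from 0.54). The part of the normexp offset in these shifts was not tested.

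**Figure D3:**
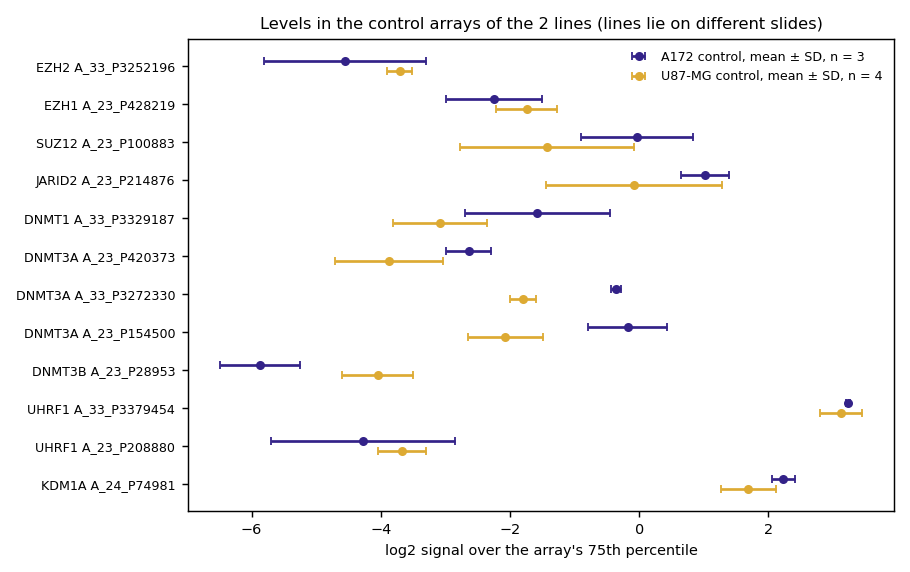
Mean log2 signal over the array's 75th percentile (horizontal axis) of each member probe in the control arrays of A172 (n = 3) and U87-MG (n = 4), with bars for the SD. Each probe is to be read within its own row, since brightness differs between probes. The DNMT3A probe A_33_P3272330 does not overlap between the lines, and the share of all probes of which this holds is not given. The U87-MG controls were not well above background for EZH2, DNMT1, DNMT3B, UHRF1 A_23_P208880 and the other DNMT3A probes, so the size of a difference between the lines cannot be read from those rows.

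The other genes of the silencing machinery were read from lists of complexes. The 9 lists of complexes hold 77 further matched genes, of which 68 were tested in A172 and 55 in U87-MG by 99 and 80 probes. None was called without the block. With it, 2 probes were called in A172 (2.02% against 3.26% of all probes) and 1 in U87-MG (1.25% against 4.19%). These probes had a median log2 fold change of -0.01 for A172 and of 0.05 for U87-MG, against 0.02 and -0.02 over all tested probes.

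The single lists are given whole, so their counts and medians include the members. In the PRC2 core list, 6 probes of 4 genes were tested in A172 and 7 in U87-MG, with 0 called and medians of 0.37 and 0.19. EZH1 and SUZ12 are among these probes, and the U87-MG median is the value of EZH1 itself. RBBP4, a histone-binding subunit singled out after its values were seen, had log2 fold changes of 0.33, 0.41 and 0.45 on its 3 tested probes in A172 (lowest adjusted p with the block 0.229). On its 4 tested probes in U87-MG they were -0.72, -0.32, 0.17 and 0.26. The fit with the block called 3.26% of all tested probes in A172 and 4.19% in U87-MG. In that fit, among the PRC2 accessory genes, 1 of 7 probes was called in A172, upward, and 0 of 5 in U87-MG. It was PHF19, which binds the histone mark of active genes, with a log2 fold change of 0.67, pair differences from 0.42 to 1.07 and an adjusted p of 0.164 with the block, while its other probe, also looked up after the values were seen, had -0.17 (adjusted p 0.820). In PRC1, the complex that reads the PRC2 mark and ubiquitinates histone H2A, 1 of 27 probes was called with the block in A172, downward. In U87-MG 0 of 22 were called, and their log2 fold changes ranged from -0.54 to 0.73. The probe called in A172 was SCMH1, which fell by 0.62 on the log2 scale (adjusted p with the block 0.177). The demethylases of the PRC2 mark and the deubiquitinase complex PR-DUB gave 0 of 6 probes in A172 and 0 of 4 in U87-MG, with medians of -0.34 and -0.11.

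On the DNA methylation side, the list of methyltransferases with UHRF genes also holds the gene HELLS. With the members included, it gave 0 of 10 probes in A172 and 0 of 8 in U87-MG, with medians of 0.05 and -0.06. The list of TET and TDG genes, which take methylation off, also holds IDH1 and IDH2, enzymes that make a cofactor of the TET proteins, and gave 0 of 8 and 0 of 6, with medians of 0.16 and -0.01. The proteins that read methylated CpG gave 0 of 11 in either line, with medians of 0.18 and 0.07. The list of KDM1A and the CoREST complex also holds KDM1B, SNAI1 and SNAI2, and gave 0 of 14 and 0 of 10, with medians of -0.17 and -0.04. Of the H3K9 methyltransferases and their readers, the fit with the block called 0 of 18 probes in A172, against 3.26% of all tested probes. It called 1 of 13 in U87-MG, against 4.19%. There CBX5, which encodes the heterochromatin protein HP1 alpha, fell by 0.52 on the log2 scale and was lower in all 4 pairs (adjusted p with the block 0.127), and in A172 its log2 fold change was -0.39 (adjusted p 0.380). The other CBX5 probe, looked up afterwards, had 0.07 in U87-MG and -0.19 in A172.

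**Figure D4:**
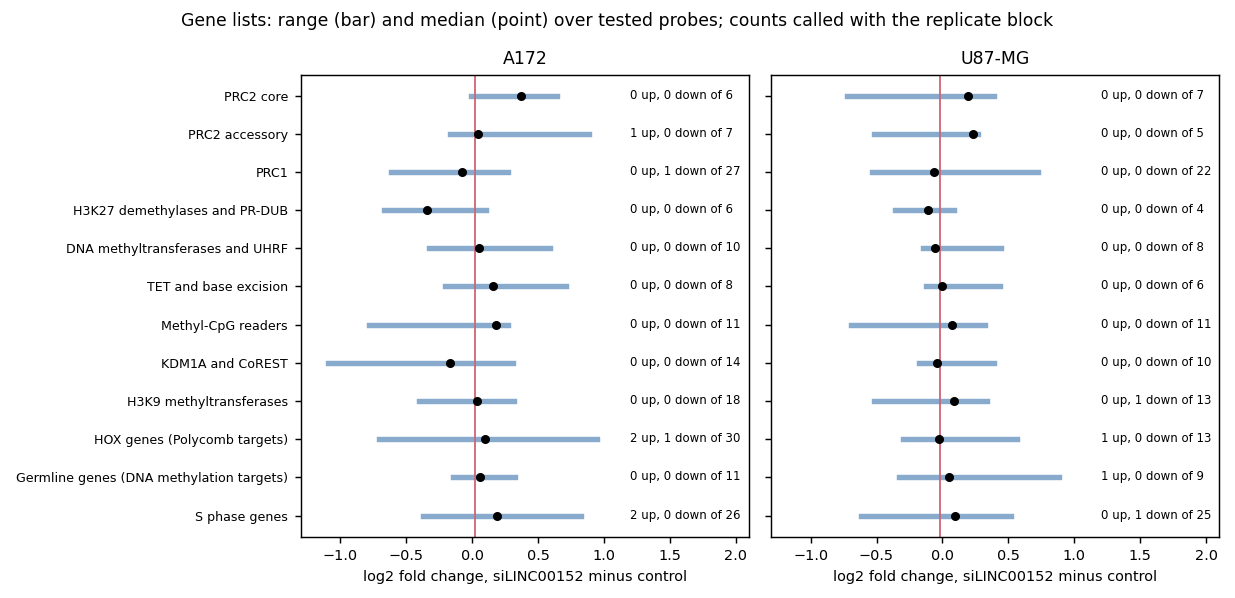
Range (bar) and median (point) of the log2 fold change over the tested probes of each list in A172 and U87-MG, with the median of all tested probes as a red line and the number of probes called with the replicate block at the right. The lists of silencing complexes, members included, have medians between -0.34 and 0.37. Among their genes other than the members the fit with the block called 2 probes for A172 and 1 for U87-MG.

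Lists of genes that silencing acts on were read in the same way. Of the HOX genes, classical Polycomb targets, 30 probes were tested in A172 and 13 in U87-MG. Without the block 0 were called. With it 2 were called upward and 1 downward in A172 and 1 upward in U87-MG, against 3.26% and 4.19% of all tested probes. HOXB13 had a log2 fold change of 0.94 and HOXA13 one of 0.92 (adjusted p with the block 0.164 and 0.149), while HOXB6 fell by 0.70 on the log2 scale (adjusted p 0.116). HOXB13 was well above background on 2 of 3 control and 3 of 3 knockdown arrays, so it was tested only through the knockdown group, and nothing is read from the count that includes it. HOXB2 in U87-MG had a log2 fold change of 0.57 (adjusted p 0.115), against -0.29 in A172, and the adjusted p of this difference was 0.310. The called HOX probes other than HOXB13 also went in both directions. The list medians, which in A172 include HOXB13, were 0.09 and -0.03. Of the germline genes, which DNA methylation keeps off in body cells, 0 of 11 probes were called in A172 and 1 of 9 in U87-MG with the block. It was SSX1, with a log2 fold change of 0.88 and pair differences from 0.46 to 1.89, well above background on 2 of 4 control and 3 of 4 knockdown arrays (adjusted p 0.156), so it was tested only through the knockdown group in which it is high.

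Since EZH2, DNMT1 and UHRF1 follow the cell cycle, genes of S phase and of dividing cells in general, MKI67 and TOP2A among them, were set beside them. Without the block 0 of 26 probes in A172 and 0 of 25 in U87-MG were called. With it, CDT1 and E2F1 were called upward in A172, with log2 fold changes of 0.59 and 0.52 (adjusted p 0.0944 and 0.161). In U87-MG CDC6 was called downward, by 0.62 on the log2 scale (adjusted p 0.0908). There 3 of 4 control and 1 of 4 knockdown arrays were well above background, so CDC6 was tested only through the controls. These are 2 of 26 and 1 of 25 probes, against 3.26% and 4.19% of all tested probes, and with CDC6 tested through 1 group nothing is read from the second count. The medians of the list were 0.19 in A172 and 0.09 in U87-MG. The part of cell cycle phase in the values of EZH2, DNMT1 and UHRF1 was not tested.

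Among the marker lists, 2 of the 3 probes of the epithelial keratin KRT14 were called upward in A172 without the block, with log2 fold changes of 3.36 and 3.35 (limma adjusted p = 0.0100 and 0.0200). Both were also called with the block (limma adjusted p = 0.0157 and 0.0142). A CD44 probe fell by 1.13 on the log2 scale and was called only with the block (adjusted p 0.00807). The remaining KRT14 and CD44 probes had 0.71 and -0.24 in A172 and were not called. No probe of the leukocyte, endothelial and neuron lists was called in either line, with or without the block. Of the 6 epithelial genes 2 were well above background on all 14 arrays and 1 on none. CDH1 was not well above background on any array, and EPCAM on 1. Markers of other cell types also gave signal on all 14 arrays, with 3 of 5 leukocyte genes (CD14 among them), 2 of 6 endothelial genes (CDH5 and VWF) and 2 of 6 neuron genes (RBFOX3 and TUBB3). The part of these markers in the members' values was not tested.

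Likeness across the arrays was read for the brightest tested probes of UHRF1 and KDM1A, with values centred within each line and 21125 probes compared over 14 arrays. EZH2 was tested in neither line and DNMT1 only in A172, so neither was used. KDM1A was most like PCYOX1L (Pearson r = 0.958), LARP6 (0.955) and SPARC (0.950), and within each line alone these coefficients ranged from 0.945 to 0.981. UHRF1 was most like GTF2E2 (0.887), APPL1 (0.877) and RAD1 (0.876), with coefficients between 0.502 and 0.850 within A172 and between 0.889 and 0.950 within U87-MG. These coefficients carry no p, and arrays of a pair are not independent in them.

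The promoters of the members were compared as sequences, as a description of what the 10 genes share. RefSeq windows of 300 bases (250 before and 50 after a start, GRCh38.p14) were found for all 10 genes, 19 windows in all. The CpG count of these windows ranged from 3 to 46 with a median of 30, against a median of 14 over all 35116 windows, and the lowest belonged to DNMT3B. The E2F cores TTCCCGC and TTGGCGC were searched on both strands, and 4 of the 19 windows held 1 or the other, against 9.2% of all windows. A match names letters in a window, not a site in use. The matches lie in chr7:148884242-148884541 (EZH2, minus strand), chr17:31936757-31937056 (SUZ12, plus strand), chr19:4909251-4909550 (UHRF1, plus strand) and chr1:23019218-23019517 (KDM1A, plus strand), and the capitals mark the core.
EZH2: tgccgcgtTTGGCGCtcggtccg
SUZ12: ccctaattTTCCCGCgaattcag
UHRF1: tttctcgcTTCCCGCcactgcgt
UHRF1, opposite strand: tgatttttTTCCCGCgaaaactc
KDM1A: gagcgcgcTTGGCGCgtgcgtac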

How the data were processed

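RNA of A172 and U87-MG cells was measured on 14 one-colour Agilent arrays. The authors deposited the scanner output, in which Feature Extraction 11.5.1.1 gave each spot a background-corrected intensity, and log2 values that the authors had made equal in distribution across the arrays.

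Log2 of the processed signal was taken and reduced by the array's 75th percentile over 58717 non-control spots. Outlier-flagged spots were left out, no spot was saturated, and spots of a probe were averaged. A probe was well above background when at least 0.5 of its spots were. Group contrasts came from limma 3.58.1 (R 4.3.3), with 1 model of 4 group means, Benjamini-Hochberg adjustment within a line over all tested probes, and an interaction for the difference between the lines. RefSeq's gene table (GRCh38.p14) named 29033 of 50599 probes through their accessions. The files used here hold no mean signal, so normexp (offset 50) took median signals. For scale, the 75th percentile of the processed signal was 32.96 to 69.03 on the U87-MG arrays and 131.3 to 283.7 on the A172 arrays. The part of the offset in the normexp fold changes was not tested.

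As a check of the pairing, each array's deviation from its group mean was correlated with those of the other group. Arrays of equal number gave 0.675 to 0.795 for A172 and 0.373 to 0.864 for U87-MG, and arrays of unequal number -0.701 to -0.0436 and -0.772 to 0.411, so the numbers were taken to pair the arrays, although in U87-MG the ranges overlap and only 3 of 4 control arrays were most like their own partner. In A172 pair and slide cannot be told apart, and all U87-MG arrays share another slide. The labels name independent biological experiments.

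Named genes are all members, the LINC00152 probe and, per list and line, at most 4 probes with the largest fold change among those called and moved alike in every pair. RBBP4 and the second probes of named genes fall outside this rule and were added after their values were seen. The likeness partners are the 3 highest correlations. The members and lists were chosen with earlier results of these data known. The model was tested on simulated data. Alternatives concerned background correction, normalization, the deposited log2 values, the filter, flagged spots, separate fits, the block, the variance model, the FDR, and pairs or arrays left out. The number of arrays limits the precision.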

Additional observations from a re-analysis of the deposited data

Results flagged for a closer look

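Of 39 sets of 4 values examined in U87-MG (the control and knockdown arrays and the pair differences of each probe), 2 held a value far from the other 3, where chance flags about 1 in 20. The DNMT3A probe A_23_P420373 read -2.64 on U87 control replicate 3, above the other controls at -4.41 to -4.16, with none of them well above background. For UHRF1 A_33_P3379454, the pair difference of replicate 3 was 0.39, against -0.18 to -0.12 in the other U87-MG pairs, because its control array of replicate 3 was low (2.67). Both lie in the replicate with the dimmest arrays, and the part of array brightness in them was not tested. No member probe had an effect that differed between the lines under the thresholds, and none moved one way in every A172 pair and the other way in every U87-MG pair.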

How the results depend on the processing

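No member probe was called under 13 other settings (12 for the difference, which fits by line do not give) or in 21 fits without a pair or an array. With the block none was called under 7 further settings (6 for the difference) or without any of 7 pairs. In U87-MG these fits tested fewer members in places: 3 of 6 under the strict filter and without pair 1, 2 or 4, and 5 without control array 1, 2 or 4, so the U87-MG ranges of EZH1, SUZ12 and DNMT3A lack those fits that did not test them. These block settings and the other scalings of the levels were chosen after seeing the data. Only another background correction or scaling changes the values of every member, and of 56 such fold changes 52 kept their direction and 4 turned, all in U87-MG: EZH1 to -0.002 and UHRF1 to 0.022 with normexp, UHRF1 to 0.048 and KDM1A to 0.018 with median scaling. The cause was not tested.

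The number of probes called over the whole array did depend on the setting. In A172 the 52 became 133 with normexp, 34 with no filter on dim probes, 33 with a strict filter, 14 in a fit by line, 924 with the block, 1230 with a random block and 27 at an FDR of 0.05. In U87-MG the 11 became 4 with normexp, 7 with a strict filter, 918 and 1118 with the blocks and 7 at the lower FDR. For the difference the 2 became 1 with normexp, quantile normalization, the deposited values or the lower FDR, 0 with a strict filter, and 89 and 218 with the blocks. Leaving out a pair or an array gave 4 to 127 in A172, 2 to 17 in U87-MG and 0 to 3 for the difference, and with the block, leaving out a pair, 228 to 1422, 82 to 738 and 2 to 102.

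Of 132 member fold changes without a pair or an array of their own line 106 kept their direction and 26 turned. With a whole pair left out, JARID2 and DNMT3A A_33_P3272330 turned in A172 (to -0.06 and -0.011). In U87-MG only UHRF1 did so (to 0.021, 0.031 and 0.041). The remaining turns came from fits without a single array, which break a pair. In A172 the ranges were 0.395 to 1.071 for EZH1, -0.325 to 0.543 for SUZ12, -0.141 to 0.258 for JARID2, -0.923 to 0.296 for DNMT1, -0.011 to 0.102 and -0.184 to 0.516 for the DNMT3A probes A_33_P3272330 and A_23_P154500, 0.107 to 0.247 for UHRF1 and -0.477 to -0.270 for KDM1A. In U87-MG they were -0.037 to 0.30 for EZH1, -0.210 to 0.874 for SUZ12, -0.954 to 0.153 for JARID2, -0.401 to 0.017 for DNMT3A, -0.165 to 0.096 for UHRF1 and -0.237 to 0.107 for KDM1A. Signal over background limits what can be said of EZH2, DNMT3B and, in U87-MG, DNMT1.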
